A study of Bos taurus with 8 samples.

Results

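The cytosolic ribosomal protein genes encode the proteins of the small (RPS) and large (RPL) subunits of the ribosome that translates nuclear mRNAs. They were taken by symbol, as RPL or RPS with a number, RPLP0 to RPLP2 and RPSA. The RefSeq table of the cattle genome held 82 such symbols, of which 78 had a probe and all 78 were bright enough to be tested, among 12602 genes with a named probe. The 4 symbols with no probe named for them were RPL22, RPS14, RPL15P and RPS27P, and the last 2 are pseudogenes. RNA of 8 bovine cell samples was hybridized with 1 dye to Agilent bovine arrays, 1 array per sample. Of these, 6 held embryo-derived stem-like cells (eSLCs) and 2 held somatic cells (SCs). The eSLC lines came from in vitro produced (IVP) embryos (I2 at passage 35, I9 at passage 30), nuclear transfer (NT) embryos (N2 at passage 36, N7 at passage 30) and parthenogenetic (PA) embryos (P1 at passage 31, P4 at passage 36), and SCs were taken at passages 5 and 10. All eSLCs were grown on mitomycin-inactivated murine STO cells with PD184352, SU5402 and CHIR99021, which inhibit MEK, the FGF receptor and GSK3, and SCs in DMEM with serum. The material came from HanWoo cattle, the NT donor cells came from ear skin, and each eSLC array is 1 line. The comparisons asked how eSLCs differ from SCs, and how eSLCs of NT or PA origin differ from those of IVP origin.

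A ribosome holds 1 copy of nearly every ribosomal protein, apart from the stalk proteins P1 and P2, so that the genes are usually expressed together. Their mRNAs begin with a 5′ terminal oligopyrimidine tract, through which mTOR signaling controls their translation as a group, and they are among the most abundant mRNAs of dividing cells. A few members have a paralog that is expressed in particular tissues or states. RPL10L stands in for the X-linked RPL10 in male germ cells, RPL3L replaces RPL3 in heart and skeletal muscle, and RPS27L is a target of p53.

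Slide 1 carried SC P5 with both IVP lines and N7, and slide 2 carried SC P10 with both PA lines and N2. In the values below, the normalized signal is the background-subtracted signal of a probe, rescaled so that the 75th percentile of each array is 1000. Before rescaling it was 1191 scanner units in N2 and 4086 in N7, the extremes, and exceeded the dimmest signal well above background by 75.2 to 136 times. The number of arrays limits the precision of every value. In a check of the labels, 10 of the 11 fibroblast markers tested were lower in eSLCs than in SCs, and 0 were higher. Their summed normalized signal was 13523 to 71239 in eSLCs and 699190 to 861170 in SCs. Of 12 trophectoderm markers, 11 were higher in eSLCs, with a summed signal of 545224 to 1832150 against 13217 to 13630. Of 7 early lineage markers tested, SALL4 and LIN28A rose and SOX2 fell, and POU5F1 and NANOG were not called, at mean signals of 85.4 and 22.6 in eSLCs. The difference of SOX2 ran from -3.38 to -8.9e-16 over the scalings, and in the authors' processed values 0 of these markers were called lower. The part of these marker lists in the ribosomal protein values was not tested.

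Against SCs, 3 of the 78 ribosomal protein genes were higher in eSLCs, 1 was lower and 74 were not called (limma, adjusted p under 0.05 over all 10957 genes tested), beside 27.4% of all genes higher, 19.6% lower and 47% called in either direction. The 3 higher genes were RPL10L, RPL28 and RPL36AL, all of the large subunit, and the lower gene was RPS27L, the paralog of a small subunit protein. Of the 78 genes, 7 had an unadjusted p under 0.05, beside 54.9% of all genes. The fitted difference was above 0 for 76 members, beside 59.8% of all genes, but for 53 members after quantile normalization. Scaling each array to the median of the members puts that median near 0 by construction, with 32 members above 0. The median difference over members was 0.43 on the log2 scale, with quartiles at 0.34 and 0.52, and that over all genes was 0.23. After quantile normalization the medians were 0.06 and 0.13. The 31 small subunit genes had a median of 0.41 and the 47 large subunit genes a median of 0.45. The fitted differences of most members thus lay close together under this scaling, but 74 members were not called. The lines also differed, with a median member difference from the SC array of their slide of -0.16 in N7 and 0.82 in P1. Only RPL10L, RPS27L and RPS9 were fitted 2-fold or more from 0. In these bulk samples, fewer cells of a type and less RNA per cell cannot be told apart. The p-values measure the spread between these samples, and whether SC P5 and SC P10 stand for separate cultures is not given in the sources used here.

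**Figure D1:**
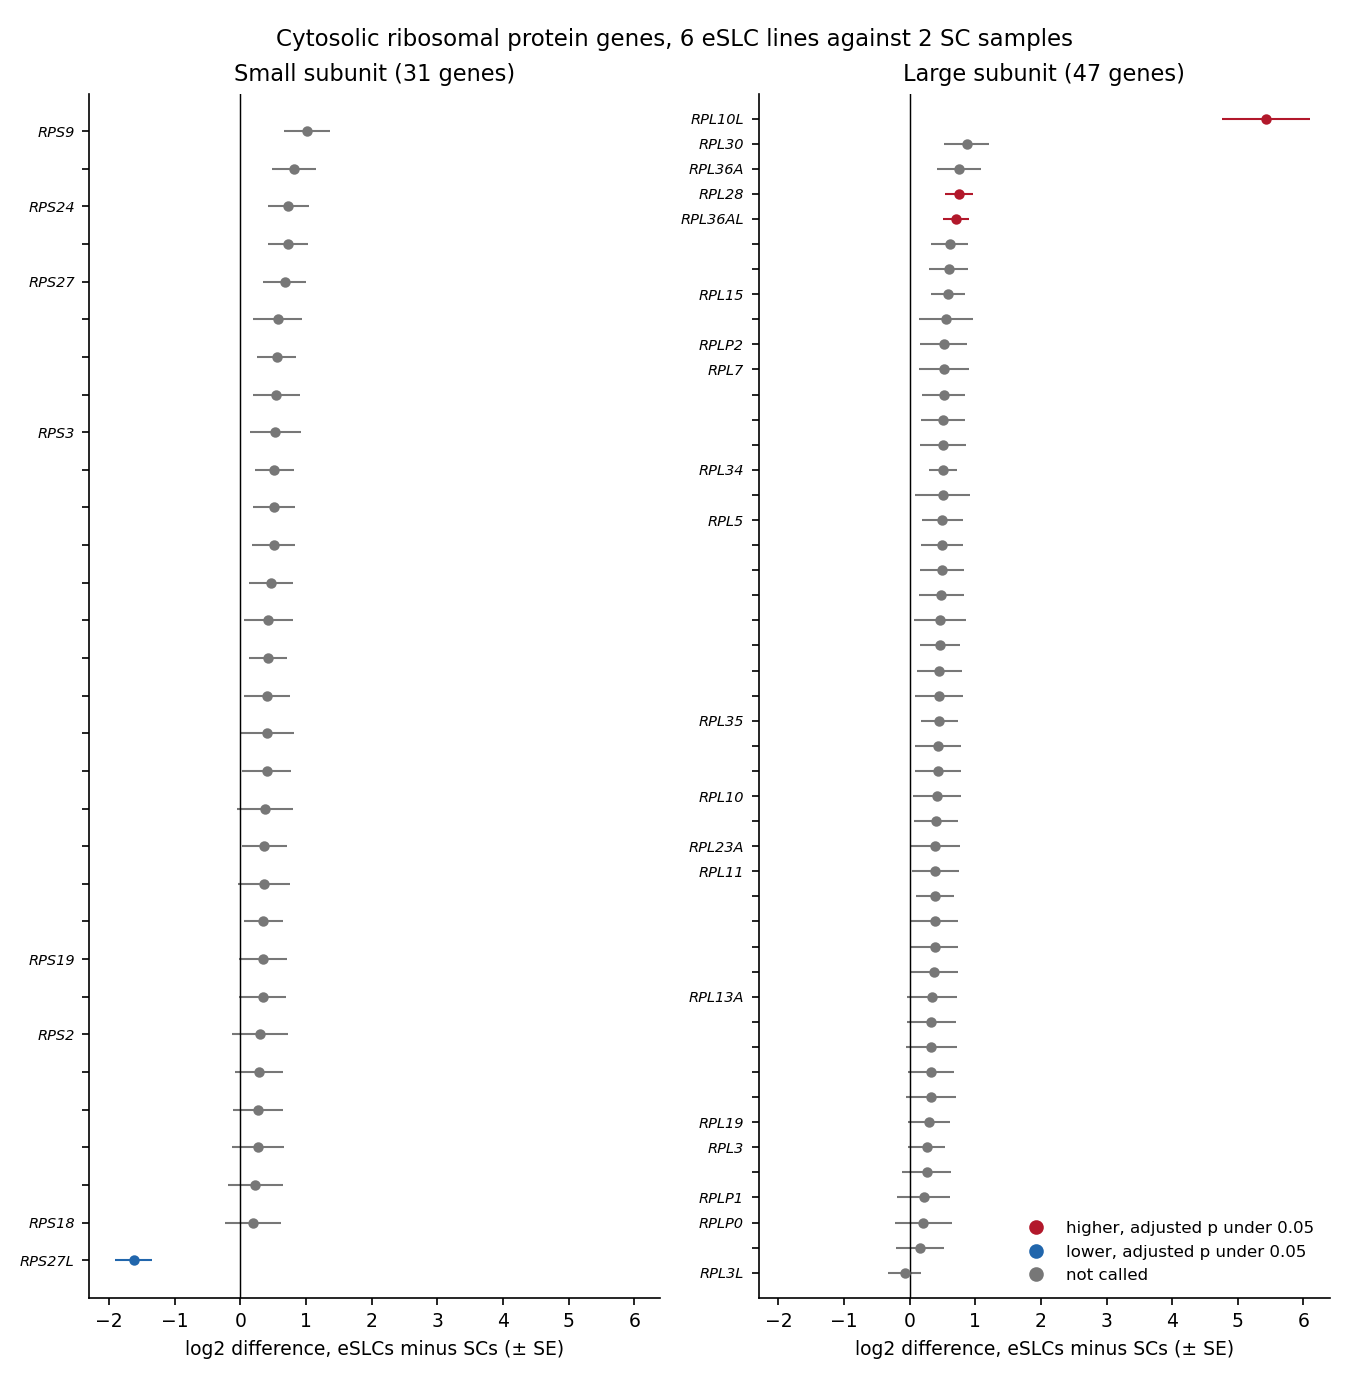
Log2 difference between eSLCs and SCs (x axis, eSLCs minus SCs, signals scaled to the 75th percentile) for the 31 small subunit genes (left) and 47 large subunit genes (right), as points with bars of 1 standard error from a limma fit over 8 arrays, with some of the members labelled by name. RPL10L, RPL28 and RPL36AL (red) and RPS27L (blue) passed the test. The quartiles of all members are 0.34 and 0.52, with bars of 0.35 at the median, and quantile normalization lowers their median difference to 0.06.

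The small count went with a large spread between lines that the members shared. The standard error of a member's difference was 0.35 at the median, and that of all genes was 0.26. The median member signal was 171431 in I2, 166389 in I9, 274223 in N2, 118129 in N7, 299931 in P1 and 227931 in P4, and it was 129281 in SC P5 and 161836 in SC P10. N7 therefore lay below both SC samples, and P1 and N2 lay highest. N7 also held the extremes of the marker sums among lines, with the highest fibroblast sum (71239, against at most 29610 in the other lines), the lowest trophectoderm sum (545224) and the highest early lineage sum (8282), whose part in its member values was not tested. N7 was the lowest of the 6 eSLC lines for 75 members (96.2%), beside 26.8% of all genes, and P1 or N2 was the highest for 76. Among lines of 1 origin, the 2 NT lines differed most, with a median of 1.25 log2 between N2 and N7 over members and 0 over all genes. The ordering followed the scanner reading of the array in part. N7 had the highest 75th percentile by which signals were divided, and the 3 eSLC arrays with the lowest percentiles, N2, P1 and P4, had the highest member medians. However, P1 lay above N2 at a higher percentile (1210 against 1191). SC P10, at 1610, lay below I2 and I9, at 2814 and 2837. The part of this divisor in the spread was not tested.

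**Figure D2:**
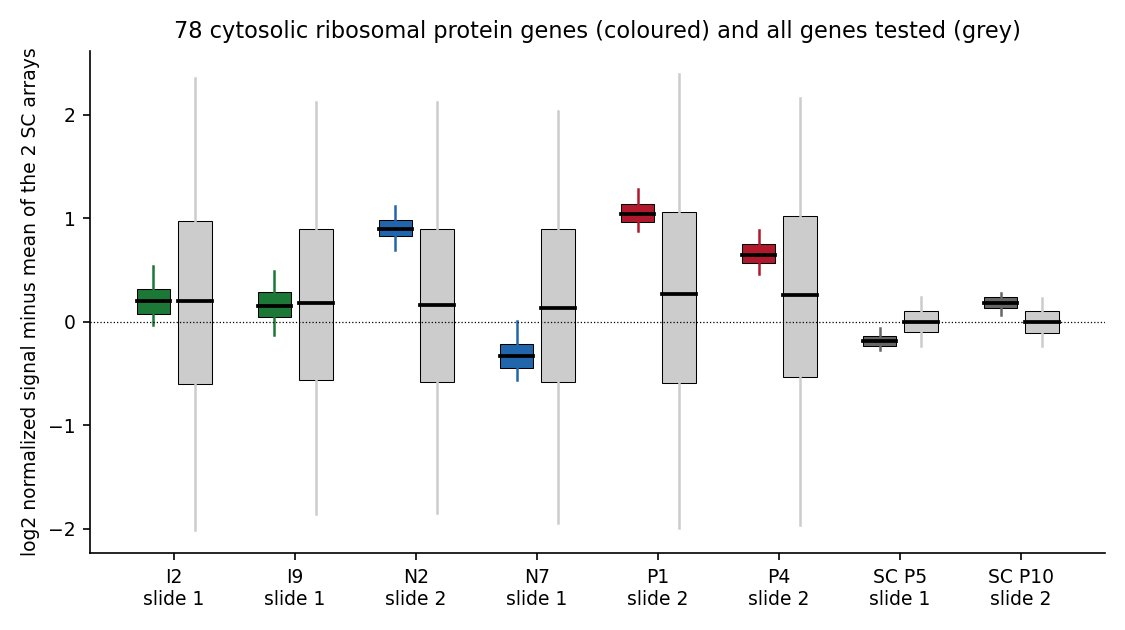
Log2 normalized signal on each array minus the mean of the 2 SC arrays (y axis) for the 78 ribosomal protein genes (coloured by group: green IVP, blue NT, red PA, dark grey SC) and for all 10957 genes tested (light grey). Boxes span the quartiles, black bars are medians and lines reach from the 10th to the 90th percentile. The members form narrow boxes that move as a block, from a median of -0.33 in N7 to 1.04 in P1, while the medians of all genes stay between 0.13 and 0.27 in the eSLC lines.

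Each line was also set against the SC array of its own slide, a comparison added after the data were seen and given as values with no test. Of the 78 members, 76 were higher in I2 (beside 57.5% of all genes), 76 in I9 (56.6%), 76 in N2 (55.9%), 77 in P1 (58.7%) and 76 in P4 (59.2%). In N7 only 15 were higher and 63 were lower, beside 53.9% of all genes higher. The median member difference from the SC array of the slide was 0.38 in I2, 0.34 in I9, 0.71 in N2, 0.82 in P1, 0.45 in P4 and -0.16 in N7. Taking all lines of a slide together, the median was 0.20 within slide 1, close to the 0.19 of all genes, and 0.67 within slide 2, where that of all genes was 0.25. Without N7, 39 members were called higher and 1 lower, beside 48.9% of all genes called, and the median was 0.64. Without N2, 7 were called higher and 1 lower, beside 48.8% of all genes called, and the median was 0.23. Without SC P5 or without SC P10, 1 was called higher and 0 lower (beside 24.6% and 27.3% of all genes called), with medians of 0.25 and 0.60. Without I2 or without P1, 1 was called higher and 1 lower (beside 41.3% and 41%).

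RPL10L, the germ cell paralog of RPL10, rose by far the most. In the lines its normalized signal was 779 (I2), 1642 (I9), 2035 (N2), 1174 (N7), 632 (P1) and 3153 (P4), and SC P5 and SC P10 had 41.6 and 23.7. Every eSLC line lay at least an order of magnitude above both SC samples, the lowest and the highest line were both of PA origin, and both SC values were well above background. The difference was 5.43 (SE 0.67, n = 6 and 2, limma adjusted p = 0.0015), or 43.1-fold, and it was called in each alternative that gave a test, with values of 4.30 to 6.07 over all alternatives. RPL10 itself had 120049 to 327227 in eSLCs, with a median of 228959, and 145985 and 184012 in SCs, and was not called (0.42, SE 0.36, adjusted p = 0.38). Within an array, where the scaling cancels, RPL10L rose against RPL10 by 5.01 in the mean, and by 3.34 to 5.95 in the single lines. RPL10L had 1 probe, and whether it also binds other transcripts was not tested.

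RPS27L, the paralog of RPS27 known as a p53 target, was the only member called lower. The lines had 9190 (I2), 8529 (I9), 8169 (N2), 15947 (N7), 10338 (P1) and 13758 (P4), below the 34511 of SC P5 and the 31188 of SC P10. The groups did not overlap, and N7 was here the highest eSLC line, the reverse of its place for most members. The signal fell by 1.62 log2 (SE 0.28, adjusted p = 0.0055), to 0.324 of the SC level. Its second, dimmer probe gave -1.73, and the adjusted p was 0.068 without SC P5 and 0.053 without SC P10. RPS27 had 87503 to 220470 in eSLCs with a median of 145517, and 89720 and 94513 in SCs (0.68, SE 0.33, adjusted p = 0.14). Against RPS27 on the same array, RPS27L was lower by 2.30 in the mean, with a range over lines of -3.10 to -0.97. That comparison used the brightest probe of each gene. The dimmest probe of RPS27 pointed the other way, at -0.42 (SE 0.22, limma adjusted p = 0.17), and RPS27L was not set against it.

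RPL28, a large subunit protein found in eukaryotic ribosomes and not in bacterial ones, had 64143 (I2), 53177 (I9), 57315 (N2), 39081 (N7), 87527 (P1) and 72890 (P4) in the lines, while SC P5 stood at 36418 and SC P10 at 35365. All 6 lines were above both SC samples, N7 by the least. The difference was 0.75 (SE 0.21, adjusted p = 0.028). RPL36AL, the autosomal copy of the X-linked RPL36A, had 73905 in N7, a median of 98890 and 134762 in P1, while SC P5 and SC P10 had 59864 and 60073. Its groups did not overlap either, and the difference was 0.70 (SE 0.20, adjusted p = 0.031). RPL36A was not called at 0.75 (SE 0.34, adjusted p = 0.12), so that the paralog and the parent differed by -0.05 in their change. Both calls rested on single arrays: the adjusted p of RPL28 was 0.055 without I2, 0.057 without P1, 0.12 without SC P5 and 0.13 without SC P10, and that of RPL36AL was 0.061 without I2, 0.051 without I9, 0.054 without P1, 0.13 without SC P5 and 0.13 without SC P10. After quantile normalization neither passed the test, at 0.38 and 0.24.

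**Figure D3:**
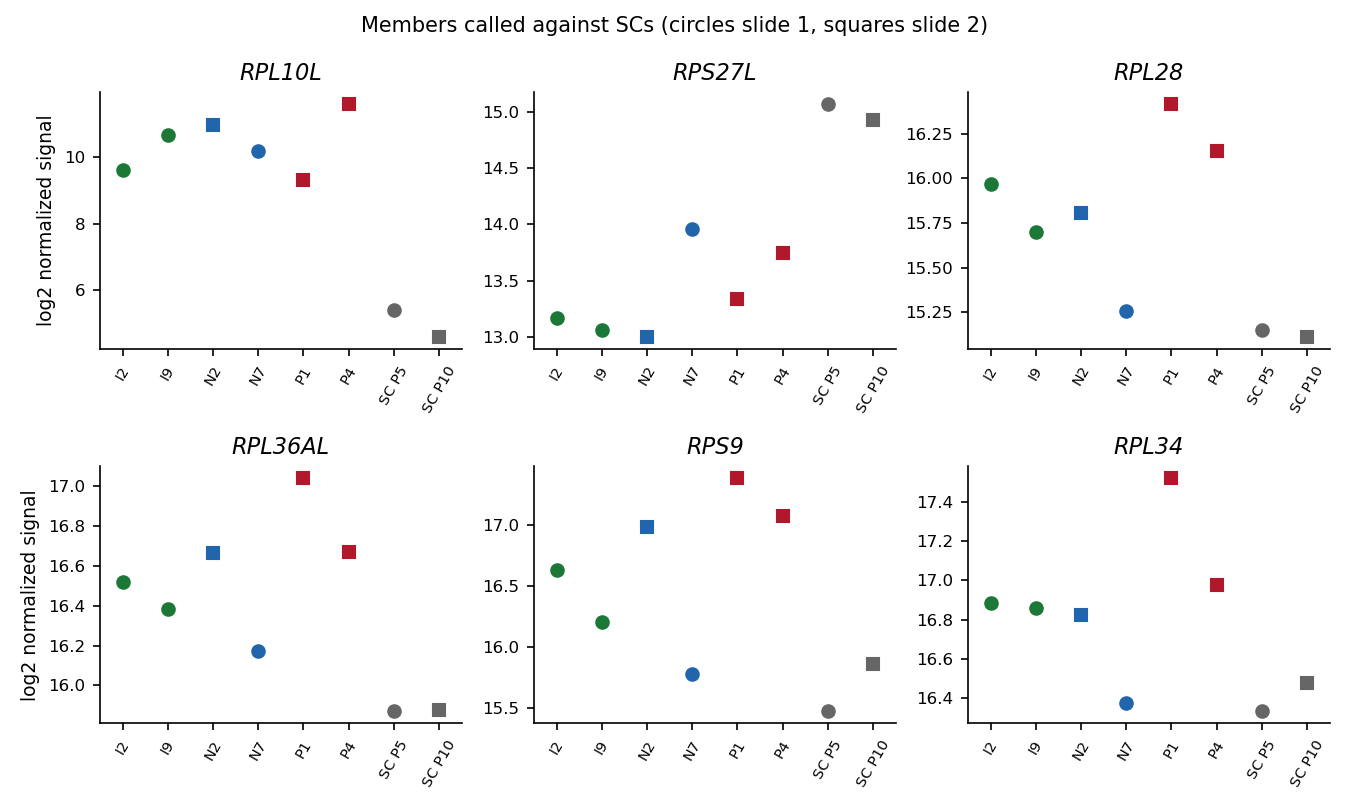
Log2 normalized signal (y axis) on each of the 8 arrays for the 6 members called in at least 1 comparison with SCs, coloured by group (green IVP, blue NT, red PA, grey SC), with circles for slide 1 and squares for slide 2 and a scale of its own in each panel. The eSLC and SC arrays are fully apart for RPL10L, RPS27L, RPL28 and RPL36AL, while N7 lies at or below an SC array for RPS9 and RPL34, which were called in the comparison of PA lines with SCs.

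The groups were fully apart for these 4 members and no other, 3 higher and 1 lower, beside 34% and 23.6% of all genes. RPS9, a protein of the mRNA entry side of the small subunit often used as a reference in qPCR, came next. It had 56169 in N7, a median of 115786 and 171152 in P1, with SC P5 at 45525 and SC P10 at 59621, so that N7 lay between the SC samples. Its difference was 1.01 (SE 0.35, limma adjusted p = 0.058), and with the slide as a block it was called (SE 0.25, adjusted p = 0.028). It was also called with the mean of a gene's probes and with the dimmest probe. RPL30, named here after its values were seen, had 0.87 (SE 0.34, adjusted p = 0.079). RPL3L, the muscle paralog, was at the floor of 13.3 on 4 eSLC arrays and in SC P10, at 14.2 in N7, 23.4 in P1 and 18.3 in SC P5, and gave no difference that can be read.

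The stalk proteins RPLP0, RPLP1 and RPLP2 form the flexible arm of the large subunit that recruits elongation factors. RPLP0 had 145645 to 444951 in eSLCs with a median of 278392, and 185117 and 298455 in SCs, so that the SC samples lay within the range of the lines. Its difference was 0.21 (SE 0.43, adjusted p = 0.72), that of RPLP1 was 0.21 (SE 0.41, adjusted p = 0.69) and that of RPLP2 was 0.52 (SE 0.36, adjusted p = 0.27). For RPLP0 and RPLP1 the sign turned under quantile normalization, at -0.043 and -0.083, and on slide 1 alone, at -0.030 and -0.026. RPL5 and RPL11, which carry the 5S rRNA into the large subunit and bind MDM2 when assembly fails, had 0.50 (SE 0.31, adjusted p = 0.23) and 0.39 (SE 0.36, adjusted p = 0.41). RPL5 had 110324 to 270750 in eSLCs, with a median of 182755, and 124308 and 134327 in SCs, and N7 was the only line below them. RPL11 ran from 106698 to 276251 with a median of 190527, against 128241 and 161341, and was -0.017 after quantile normalization.

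RPS2 and RPS3 line the channel through which mRNA enters the small subunit. RPS2 had 128993 to 390371 in eSLCs with a median of 245307, and 161316 and 237598 in SCs (0.30, SE 0.43, adjusted p = 0.59). RPS3 had 143485 to 430214 with a median of 270935, against 151348 and 218431 (0.53, SE 0.39, adjusted p = 0.30). Neither was called, and RPS2 was -0.017 after quantile normalization. The 8 genes of proteins around the exit of the nascent peptide, such as RPL19, RPL23A and RPL35, ranged from 0.29 to 0.59 with a median of 0.42, and 0 were called. A list of 9 of the genes mutated in Diamond-Blackfan anemia, an inherited failure of red cell production, ranged from 0.34 for RPS19, the gene most often mutated, to 0.73 for RPS24, and 0 were called. The medians of these role lists lay between -0.043 and 0.097 after quantile normalization. Of the 4 members often used as qPCR references, RPLP0 and RPS18 differed least between eSLCs and SCs, at 0.21 and 0.19, RPL13A had 0.34 and RPS9 the largest of the 4. RPS18 nevertheless ranged from 146459 in N7 to 431059 in N2, on either side of the 186172 and 287114 of SCs. RPL13A ran from 131323 in N7 to 359041 in P1, around 154245 and 207411 in SCs.

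Read against the median of the members on the same array, which removes the shift they share, the members kept a nearly fixed order. Apart from RPL10L, RPL3L and RPS27L, the log2 differences between 2 eSLC arrays had an SD over members of 0.14 at the median of 15 pairs (0.08 to 0.23), that between the 2 SC arrays was 0.15, and that between an eSLC and an SC array was 0.18 at the median of 12 pairs (0.15 to 0.28). The difference from SCs was within 0.25 of the members' median for 64 of 78 genes. RPL10L remained higher (4.96, SE 0.68, limma adjusted p = 0.00018) and RPS27L lower (-2.09, SE 0.57, adjusted p = 0.016). No other member was called, beside 28% of all genes called at an adjusted p under 0.05 on this scale. No other member had an unadjusted p under 0.05 either, and the share of all genes at that threshold is not given here. RPS9 (0.54) and RPL30 (0.40) were above both SC samples on all 6 eSLC arrays on this scale, with adjusted p of 0.37 and 0.52. RPL27A (-0.31), RPS18 (-0.27), RPLP0 (-0.26) and RPLP1 (-0.25) lay at the other end among the bright members, and RPL27A was named after its values were seen.

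By origin, RPL10L was higher and RPS27L lower than in SCs in each of the 3 comparisons. In IVP-eSLCs these were the only members called (beside 37.6% of all genes), at 5.17 (SE 0.83, adjusted p = 0.0052) and -1.89 (SE 0.35, adjusted p = 0.0087). In NT-eSLCs they were again the only ones (beside 34.6%), at 5.62 (SE 0.83, adjusted p = 0.0041) and -1.52 (SE 0.35, adjusted p = 0.020). PA-eSLCs had 5 members called higher and 1 lower (beside 41.6%), namely RPL10L at 5.49 (adjusted p = 0.0039), RPS9 at 1.56 (SE 0.43, adjusted p = 0.031), RPL28 at 1.15 (SE 0.25, adjusted p = 0.015), RPL36AL at 0.98 (SE 0.24, adjusted p = 0.022), RPL34, a large subunit protein, at 0.85 (SE 0.26, adjusted p = 0.046), and RPS27L at -1.46 (SE 0.35, adjusted p = 0.020). RPL34 had 188464 in P1 and 129057 in P4, against 82420 and 91133 in SCs, and both PA lines lay above. Its second, dimmer probe read 1632 in P1 and 941 in P4, between SC P5 at 7676 and SC P10 at 453, and all 4 arrays of slide 1 (7676 to 11899) were above all 4 of slide 2 (453 to 1632). With the slide as a block, 3 members were called in PA-eSLCs (beside 31.6% of all genes), namely RPL10L, RPL28 (1.03, adjusted p = 0.048) and RPS27L (-1.18, adjusted p = 0.047). RPS9, RPL36AL and RPL34 then had adjusted p of 0.057, 0.067 and 0.12. The median member difference was 0.18 in IVP-eSLCs, 0.28 in NT-eSLCs and 0.84 in PA-eSLCs, and with the block it was 0.58, 0.28 and 0.43, so that the order of IVP and PA turned. The 3 comparisons share the SC arrays. Without N7 the number called was 4 in IVP- and 15 in NT-eSLCs, beside 41.1% and 29.8% of all genes. Without N2 it was 4 in IVP-eSLCs (39.8%). It was 1 in each of these without SC P5 (20% and 17%) and 0 in each without SC P10 (20.9% and 19.1%). The PA count rose to 52 without N2 (beside 44.2% of all genes) and to 53 without N7 (45.3%), fits in which the spread between the NT lines no longer entered. It was 1 without P1 (25.9%), without SC P5 (22.1%) or without SC P10 (24.8%).

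Neither NT- nor PA-eSLCs had a member called when set against the IVP lines, and 0% of all genes were called in each case (limma). In both, 0 members had an unadjusted p under 0.05, beside 2.8% and 5.19% of all genes. The methods' t-test gave 0 members for NT and 13 for PA at an unadjusted p under 0.05, beside 2.71% and 5.90% of all genes, and 0 after Benjamini-Hochberg adjustment. PA-eSLCs stood above IVP-eSLCs by a median of 0.65, with both PA lines above both IVP lines for 76 of 78 members, beside 21.8% of all genes. Both PA lines lay on slide 2 and both IVP lines on slide 1, and with the slide as a block the median turned to -0.15. For NT- against IVP-eSLCs the median was 0.11, and -0.29 with the block. Origin and slide can here be told apart only through the NT and SC arrays, 1 of each on either slide.

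The members are represented by 249 probes, and 68 of the 78 genes have more than 1. The values above come from the brightest probe of each gene, and these lay high in the range of the scanner. The median member stood at 33.4% of the scanner's saturation value on SC P10, at 41.9% to 46.6% on the eSLC arrays of slide 2 and at 51.2% to 61.9% on the arrays of slide 1, and 60 of 78 members exceeded 50% on an array, although 0 spots were marked saturated. Among the 67 members with several probes well above background on all arrays, the dimmest probe gave a larger difference than the brightest in 54 (80.6%), beside 45.6% of 5558 other genes. The median difference of these members was 0.43 from the brightest and 0.61 from the dimmest probe. With the dimmest probe 12 members were called higher and 2, RPS27L and RPL15, lower, beside 44.7% of all genes, an alternative chosen after the data were seen. Further members called higher with it included RPS3, RPS9, RPL6, RPL7, RPL27, RPL29 and RPL36A, named after their values were seen.

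RPL7, a large subunit protein taken as an example after its values were seen, shows the size of this. Its brightest probe gave 0.52 at a mean of 53% of saturation, and its dimmest gave 0.84 (SE 0.24, adjusted p = 0.032) at 7.11%. The dim probe read 33877 (I2), 29480 (I9), 28193 (N2), 16681 (N7), 34821 (P1) and 30538 (P4) in the lines, while SC P5 and SC P10 had 16644 and 14951. Every line was above both SC samples, N7 by the least. Member probes between 20% and 35% of saturation had a median difference of 0.61 (67 probes), those between 35% and 50% one of 0.47 (76 probes) and those above 50% one of 0.39 (61 probes). Other named probes in these 3 ranges had 0.75, 0.75 and 0.32, of 123, 35 and 17 probes. Over these 3 ranges the members' median was lower in each brighter range, while that of other probes was lower in the brightest range alone. Dimmer member probes had 0.75 between 5% and 20% (24 probes) and 0.17 under 5% (20 probes), where other probes had 0.59 and 0.14. The part of the scanner range in the members' small median difference was not tested.

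**Figure D4:**
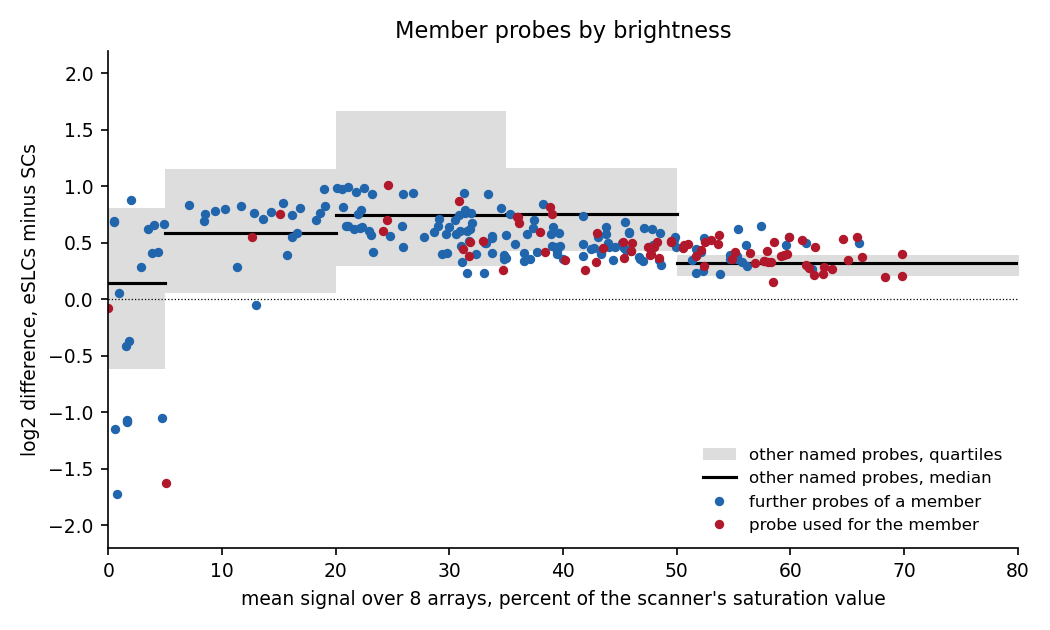
Log2 difference between eSLCs and SCs (y axis) of each member probe against its mean signal over the 8 arrays in percent of the scanner's saturation value (x axis), for the probe used for each gene (red) and its further probes (blue), with the median (black line) and quartiles (grey) of other named probes in 5 brightness ranges. The probe of RPL10L, at 5.43, lies outside the plot. The member probes above 50% of saturation lie close to 0.39, those between 20% and 35% higher, near 0.61, and the low blue points near -1 are 5 probes of RPL15.

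RPL15, a core protein of the large subunit, was the member whose probes disagreed most, and was named after its values were seen. Its brightest probe read 105967 and 123259 in SCs and 120063 to 262755 in eSLCs (0.59, SE 0.26), and the next brightest gave 0.77 and 0.78. Its 5 dimmer probes all pointed down, between -1.15 and -1.05, and the dimmest was called lower when it stood for the gene (SE 0.38, adjusted p = 0.0497). One of them read 7756 in I2, 17413 in I9, 18381 in N2, 12433 in N7, 14071 in P1 and 8334 in P4, against 26392 and 25074 in SCs, and every line was below both SC samples. All 8 probes carry the same RefSeq accession in the array design. Over all member probes, 237 of 248 tested were above 0 and 11 below. When each probe was tested on its own, 22 probes of 16 genes were called higher and 2 probes, both of RPS27L, lower, beside 44.4% of all probes.

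The members' median difference depended on how arrays were made comparable. The median was 0.43 with the 75th percentile, 0.38 with the array median, 0.44 after normexp background correction, 0.37 from the authors' processed values and 0.06 after quantile normalization, where all genes had 0.23, 0.19, 0.16, 0.06 and 0.13. RPL10L was called higher under all of these, and RPS27L lower under all but the processed values, where it was -1.49.

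**Figure D5:**
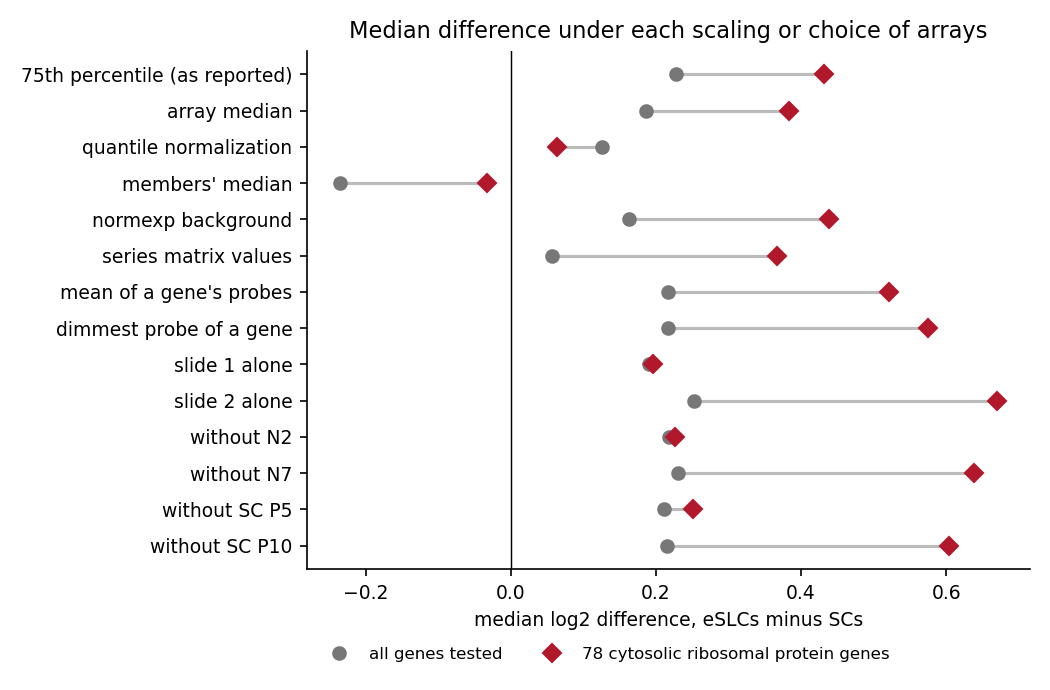
Median log2 difference between eSLCs and SCs (x axis) over the 78 ribosomal protein genes (red diamonds) and over all genes tested (grey circles) for each scaling, choice of probe or choice of arrays (y axis). The members lie right of all genes in most settings, meet them on slide 1 and without N2, and lie left of them, at 0.06 against 0.13, after quantile normalization.

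Genes that make, supply or resemble the cytosolic ribosome were set beside the members, in the comparison of eSLCs with SCs in which 27.4% of all genes rose and 19.6% fell. A list's share called is given beside its counts and is not a test of the list. Of 3 further paralogs outside the symbol rule, RPL7L1 rose (0.58, SE 0.15, adjusted p = 0.026), a call lost after quantile normalization, and RPL22L1 and RPL26L1 were not called at 0.11 and 0.49. FAU, which encodes a small subunit protein fused to a ubiquitin-like protein, was not called at 0.68. Of 20 translation factors and other genes tested whose mRNAs carry the oligopyrimidine tract, 8 rose and 0 fell (40% called), with a median of 0.72 that was 0.31 after quantile normalization. The largest were RACK1, a scaffold on the small subunit, at 6.06 (SE 0.77, adjusted p = 0.0016), and NAP1L1, a histone chaperone, at 2.24 (SE 0.25, adjusted p = 0.00096). The RACK1 probe read 1276 in the mean of eSLCs and 19.1 in SCs, and its sign turned to -0.11 in the authors' processed values.

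RNA polymerase I transcribes the large rRNA precursor. Of 13 genes of the enzyme and its factors, 5 rose and 0 fell (38.5% called), with POLR1G at 1.75 (SE 0.28, adjusted p = 0.0038) and TAF1D at 1.23 (SE 0.23, adjusted p = 0.0075) the largest. Of 67 ribosome assembly genes tested, 21 rose and 2 fell (34.3% called, below the 47% of all genes), and the median was 0.49. After quantile normalization 13 rose and 2 fell. FBL, the rRNA methyltransferase fibrillarin, rose by 1.68 (SE 0.20, adjusted p = 0.0014) and NOLC1, a nucleolar phosphoprotein, by 1.53 (SE 0.26, adjusted p = 0.0053). SBDS and NMD3, which act late in the maturation and export of the large subunit, fell by 1.56 (SE 0.27, adjusted p = 0.0050) and 0.88 (SE 0.23, adjusted p = 0.024). Of 75 mitochondrial ribosomal protein genes, 37 rose and 2 fell (52% called, and 23 and 2 after quantile normalization), with a median of 0.59 and a standard error of 0.19 at the median. MRPL51 (1.61) and MRPL15 (1.39) rose most, and MRPS6 (-0.998) and MRPL33 (-0.78) were the 2 that fell. Over these genes N2 did not stand above N7, with a median difference of -0.18, where the cytosolic members had 1.25. The summed signal of the 11 housekeeping genes did follow the members, with 534275 in N7, the lowest line, and 1079100 in N2 and 1093680 in P1, the highest.

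Of 6 growth control genes tested, RPS6KB1, the S6 kinase that acts below mTOR, rose by 1.63 (SE 0.20, adjusted p = 0.0014) and the cap-binding EIF4E by 0.71 (SE 0.18, adjusted p = 0.022). MYC, a transcription factor that drives ribosome production, fell by 1.49 (SE 0.43, adjusted p = 0.031). Of 14 proliferation genes, 12 rose and 0 fell (85.7% called), with AURKA at 2.06 (SE 0.24) and CDK1 at 1.81 (SE 0.25) the largest. Of 11 housekeeping genes, PGK1 (1.17) and YWHAZ (0.76) rose and 0 fell, and YWHAZ turned to the other sign, at -0.17, under another scaling. The median over the housekeeping genes was 0.31, beside the members' 0.43, and became -0.15 when arrays were scaled to the members' median. These counts differed between settings. Scaled to the members' median, where 28% of all genes were called, 3 of the oligopyrimidine tract list and 1 proliferation gene rose, 2 assembly genes and 1 growth control gene fell, and 0 mitochondrial ribosomal or RNA polymerase I genes were called. In the authors' processed values the SC arrays also entered as 1 sample, and 8.49% of all genes were called. There 2 of the oligopyrimidine tract list and 1 assembly gene rose, and 0 mitochondrial ribosomal, RNA polymerase I, proliferation, housekeeping or growth control genes were called.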

How the data were processed

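RNA of 6 eSLC lines and 2 SC samples was measured on 8 one-colour arrays. The authors scanned the arrays with Feature Extraction version 11.5.1.1 and deposited the linear signal intensity of each spot, and a series matrix of processed intensity values, normalized in GeneSpring GX by a method not further specified for these values. The members and gene lists were chosen with earlier results of these data known. The background-subtracted signal was used, since the processed signal column was out of step with it in 6 of 8 files (Spearman correlation 0.161 to 0.216 over all probes, 0.971 and 0.973 in N2 and I2). Control and outlier spots were left out, spots of 1 probe averaged, signals divided by the 75th percentile of the array, set to no less than 13.3 and taken to log2. Probes were named through accessions and the RefSeq table of assembly ARS-UCD2.0 (26731 of 43637 probes, 12602 genes), which is not the build of the array design, so no coordinates are given. The brightest probe of a gene was used.

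The test took the 10957 genes that were well above background on both arrays of some group, by limma (3.58.1, under R 4.3.3), with a mean per group and 8 arrays in 1 fit. The eSLC value is the mean of the 3 origin means. Genes were called at a Benjamini-Hochberg adjusted p under 0.05 over all genes. The fit was also tested on simulated data with 200 changed genes, far fewer than were called here. There it recovered 0% of them at 2-fold and 64.5% at 4-fold. These rates are not those of the real fit, which called RPL28 at 1.68-fold. A member that was not called may still differ. Named were the 10 largest rises and falls among called members (all if fewer), the members of the stalk, 5S, mRNA entry, reference and paralog lists, any member called between origins, and the 2 largest called rises and falls of each further list. Alternatives were the array median, quantile normalization, the members' median, normexp with offset 50 (on the spot median signal, since the planned mean signal was not among the columns used), the series matrix values, other filters, probe choices, designs and calls, the methods' t-test, and leaving out each array. In the series matrix, SC P5 and SC P10 agree within 1% for 9353 probes and for 37 of the 78 main probes, so they were averaged there. Python 3.11.15 and matplotlib 3.10.9 served for summaries and figures. Some members are not reported by name here.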

Additional observations from a re-analysis of the deposited data

Results flagged for a closer look

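RPL3L, the muscle paralog of RPL3, had 1 eSLC array far from the others. P1 read 23.4 where the other 5 lines lay between 13.3 and 14.2, and this gap was 0.884 of the whole range of the 6 lines, past Dixon's limit for a group of 6. All of these values lie at or just above the floor of 13.3, to which 4 of the 6 lines were raised. On the signals before the floor (an alternative chosen after seeing the data), which ran from 9.77 to 14.2 in the other lines, the gap was 0.572 of the range and did not pass the limit, so that the floor makes the difference. Chance takes about 1 in 20 groups past this limit, and 1 of the 78 members passed it on the level. Read against the median of the members, RPL36A (I2 lowest, 0.806) and RPS15A (N2 lowest, 0.744) passed it.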

How the results depend on the processing

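For all eSLCs against SCs, RPL10L kept its direction in each alternative, between 4.30 and 6.07, and its call in each that gave a test. In this comparison RPS27L kept its direction, between -2.09 and -1.46. RPS27L lost its call with the series matrix values, with the SC arrays as 1 sample and without either SC array. As reported, 3 members were higher and 1 lower, the median difference was 0.43, and 2, 2 and 6 members were called in IVP-, NT- and PA-eSLCs. The causes of the differences below were not tested.

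Members higher numbered 1 after quantile normalization (beside 46.3% of all genes called), scaled to the members' median (28%) and with the series matrix values (8.49%). They also numbered 1 with the SC arrays as 1 sample and with a 2-fold requirement (2155 of 10957 genes higher). With the mean of a gene's probes (48.3%) and with the slide as a block (44.7%) they numbered 6. As alternatives chosen after seeing the data, 12 were higher with the dimmest probe (44.7%) and 16 with each probe on its own (44.4% of all probes). Members lower numbered 0 with the series matrix values and with the SC arrays as 1 sample, and 2 with the dimmest probe. The median was -0.033 scaled to the members' median, which sets it near 0 by construction. For PA-eSLCs the count was 2 after quantile normalization and scaled to the members' median. It was 1 with the series matrix values and with the SC arrays as 1 sample. It was 10 with the mean of probes, 27 with only the groups compared and 3 with the slide as a block (beside 31.6% of all genes). The count was 15 for 2-fold with no test, 11 by the methods' t-test unadjusted and 0 after Benjamini-Hochberg. With the dimmest probe it was 18, and with each probe on its own 21. For IVP-eSLCs it was 1 scaled to the members' median, 0 with the series matrix values and with the SC arrays as 1 sample, 11 by the methods' t-test unadjusted, 4 with the dimmest probe and 5 with each probe on its own. For NT-eSLCs it was 1 scaled to the members' median, with the SC arrays as 1 sample, with only the groups compared and by the methods' t-test unadjusted, and 0 with the series matrix values and after Benjamini-Hochberg. The methods' t-test unadjusted gave 13 members between PA- and IVP-eSLCs (beside 5.90% of all genes). For the counts by origin given without a share, that of all genes under the same setting is not given here. Those counts are therefore not read as a result about the members.

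Leaving out each array in turn gave 1 to 39 members higher (39 without N7, 7 without N2), 0 or 1 lower, a median of 0.23 to 0.64, 0 to 4 called in IVP-eSLCs, 0 to 15 in NT-eSLCs (15 without N7), 1 to 53 in PA-eSLCs and 0 between origins. Fits that leave 1 array in a group take its spread from the other groups.

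Signs turned for single members that were not called. After quantile normalization RPL11 had -0.017, RPL13A -0.0059, RPLP0 -0.043, RPLP1 -0.083, RPS18 -0.065 and RPS2 -0.017. Scaled to the members' median, which lowers every member alike so that those below the median turn, RPL11 had -0.076, RPL13A -0.13, RPLP0 -0.26, RPLP1 -0.25, RPS18 -0.27 and RPS2 -0.16. On slide 1 RPLP0 had -0.030, RPLP1 -0.026 and RPS18 -0.036. RPL3L turned to 0.073 with the series matrix values and 0.27 on slide 2. Leaving out 1 array gave -0.14 to 0.55 for RPLP0, -0.059 to 0.48 for RPLP1, -0.12 to 0.51 for RPS18 and -0.31 to 0.15 for RPL3L, with the lowest value (for RPL3L the highest) without SC P5. Quantile normalization lowered the median of all genes by 0.10, to 0.13, the series matrix values to 0.06, no filter to 0.11 and the members' median to -0.24. Of 389 values of the 15 named members under the alternatives, 319 kept their direction and side of the threshold. On single slides, which gave no test, a value was counted among these if it kept its direction and lay within a standard error of the reported value. No paired analysis was possible because the replicate numbers were given in accession order and pair no samples, and the slides entered as a block instead. The limits of these data are 2 arrays per group and member signals at 33.4% to 61.9% of saturation at the median.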
